A study of Mus musculus with 16 samples.

Results

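Cebpa and Gfi1 encode transcription factors that steer blood progenitors towards myeloid fates, and the H3K27ac around both genes was followed here through 4 stages of mouse dendritic cell development. H3K27ac is an acetylation of histone H3 that marks active promoters and enhancers. The regions described are those in 4 lists of differing H3K27ac that overlap mm9 chr7:35885000-35960000, around Cebpa, or mm9 chr5:108105000-108165000, around Gfi1. There were 60 such regions of 273958 in all, 40 at Cebpa and 20 at Gfi1. They measured 150 to 4550 bp, and 55 of the 60 had a mean signal of at least 50.

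The cells came from C57BL/6 mice, with no genotype or treatment stated in the labels, and the labels do not give sex, age or whether the paired libraries came from separate animals. The order of differentiation is the multipotent progenitor (MPP), the common dendritic cell progenitor (CDP) and then the classical (cDC) or plasmacytoid (pDC) dendritic cell. Each cell type had 2 H3K27ac libraries from sorted cells, making 8 libraries. The p-values computed here therefore rest on the spread between 2 libraries of a cell type, which may be technical. That spread was partly shared across the regions of a list. The lists compare CDP with MPP, cDC with CDP, pDC with CDP, and pDC with cDC, and each gives a scaled signal for every library, here called first-listed and second-listed. Because the scaling differs between lists, no level is compared across lists. The depth of the libraries cannot be told from scaled values. The CDP, cDC and pDC libraries each serve in more than 1 list, so results of different lists share libraries. In bulk samples, a mark on fewer cells and less of the mark per cell cannot be told apart.

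As background, C/EBPα, the product of Cebpa, is a bZIP activator that is needed for the granulocyte and macrophage path and that slows cell division. In mouse and human blood progenitors its gene is controlled in part by an enhancer that lies some way downstream. GFI1 is a zinc-finger repressor of transcription that recruits histone deacetylases and demethylases, restrains the cycling of blood stem cells and favours granulocytes over monocytes. C/EBPα and GFI1 act together in neutrophil formation, and GFI1 also represses its own gene.

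The promoter sequences are given because signal over both gene starts is among the results. Both are RefSeq entries of the GRCm38.p6 build, run 5′ to 3′ on the strand of the gene from 250 bases before to 50 bases after the start, and carry no mm9 coordinates. Capitals mark a match to any of 5 motifs searched on both strands. These were TTGCNNAA for C/EBP factors, AATCACNGC for GFI1, GAGGAAGT for PU.1, TGTGGT for RUNX factors and AGATAA for GATA factors, none of which contains another.
Cebpa, GRCm38.p6 chr7:35119043-35119342, plus strand: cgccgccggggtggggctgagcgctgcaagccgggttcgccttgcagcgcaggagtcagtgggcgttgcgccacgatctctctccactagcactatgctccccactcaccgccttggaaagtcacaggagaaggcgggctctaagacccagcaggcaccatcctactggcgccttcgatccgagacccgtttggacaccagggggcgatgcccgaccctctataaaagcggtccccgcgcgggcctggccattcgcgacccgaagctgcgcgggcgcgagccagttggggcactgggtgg
Gfi1, GRCm38.p6 chr5:107725756-107726055, minus strand: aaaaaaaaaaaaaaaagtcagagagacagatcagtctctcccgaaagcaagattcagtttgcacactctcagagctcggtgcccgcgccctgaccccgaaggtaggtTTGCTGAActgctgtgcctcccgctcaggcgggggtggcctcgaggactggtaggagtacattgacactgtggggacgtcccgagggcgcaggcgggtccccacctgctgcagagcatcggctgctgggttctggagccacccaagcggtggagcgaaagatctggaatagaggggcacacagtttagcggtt
The Cebpa promoter was 67.3% G and C, and the Gfi1 promoter 58.0%. The 1 match was a C/EBP motif in the Gfi1 promoter, TTGCTGAA at base -143 from the start. Of 32851 promoters of the same length, 10.8% held the C/EBP motif, 0.919% the GFI1 motif, 3.20% the PU.1 motif, 16.8% the RUNX motif and 11.2% the GATA motif. RefSeq lists a further Gfi1 promoter, which held no match.

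For description, regions of the 4 lists closer than 250 bp were joined into elements, and each element is called by the distance of its centre from the start of the gene. Distances are measured from approximate mm9 starts, position 35904000 for Cebpa and 108155000 for Gfi1. Cebpa lies on the plus strand, so downstream means higher coordinates. Its 8 elements were the gene itself (mm9 chr7:35902701-35906900, from 1.3 kb before to 2.9 kb after the start) and others centred 18.8 kb upstream and 3.6, 6.0, 8.4, 19, 32.9 and 37.9 kb downstream. The last of these, mm9 chr7:35940701-35943100, spans 36.7 to 39.1 kb after the start and so holds the position near 37 kb given for the downstream enhancer. Gfi1 lies on the minus strand, so its start is at the high coordinate and lower coordinates are downstream. Its 6 elements were the start (mm9 chr5:108151901-108156450), the far end of the gene (mm9 chr5:108146301-108148000, centred 7.8 kb downstream) and others centred 17.6, 26.8, 37.7 and 44.1 kb downstream. In the RefSeq gene order, Gfi1 is followed on that downstream side by 4930428O21Rik, A930041C12Rik and Rpap2, and the elements are not assigned to any of these genes. No listed region lay upstream of Gfi1 within the window beyond the start element.

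The 2 libraries of a cell type differed in level. Autosomal totals of the listed signal ranged from 0.699 of the mean of their list, in the first-listed cDC library of the pDC and cDC list, to 1.21 in the second-listed pDC library of that list. The median log2 ratio over all regions was -0.11 for CDP over MPP, -0.19 for cDC over CDP, 0.029 for pDC over CDP and 0.22 for pDC over cDC. With equal autosomal totals these medians were 0.018, -0.090, -0.27 and -0.26. Of the 60 regions at both genes, 25 were called by limma at a Benjamini-Hochberg adjusted p under 0.05 over the whole list, where 29.8% of all 273958 regions were called. The authors made the lists from these same libraries, so the limma calls are not independent of them. Being listed is not a strong call in itself, since the authors' deposited −log10 p was as low as 0.418 among the 60. Of all regions called, 43.4% were higher for CDP over MPP, 34.7% for cDC over CDP, 56.0% for pDC over CDP and 71.4% for pDC over cDC. With equal autosomal totals these shares were 52.3%, 43.4%, 41.9% and 43.6%. The authors' direction and the fitted direction did not differ in any of the 60.

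At Cebpa, H3K27ac fell in CDP relative to MPP over the gene and over the elements at 8.4, 32.9 and 37.9 kb. Of 8 regions, 5 were called, all lower in CDP, against 19.4% called in either direction among all regions of the list. None was called higher (0, against 8.42% of all regions), and neither the unadjusted p under 0.05 nor the authors' deposited −log10 p of at least 10 gave any (0, against 14.4% of all regions by the authors' p). Without the trend in variance, limma called 0 of the 8, and 7562 of all 60816 regions of the list. No share of all regions was computed for the unadjusted p, here or below.

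The region over the Cebpa gene had a signal of 2122 and 2619 in CDP libraries, against 6077 and 4522 in MPP libraries. Both CDP libraries lay below both MPP libraries, by 2.24-fold between the means. The limma log2 ratio was -1.15 (SE 0.31, adjusted p = 0.0117). Without the first-listed CDP, the second-listed CDP or the first-listed MPP library the adjusted p was 0.314, 0.132 and 0.0914. The element at 8.4 kb had 740 and 406 in CDP libraries, against 1473 and 1545 in MPP libraries. The groups did not overlap, and the first-listed CDP library was the higher of its pair here, whereas the second-listed was higher over the gene. Its log2 ratio was -1.46 (SE 0.31, adjusted p = 0.00254), with adjusted p = 0.0878 without the second-listed CDP and 0.0621 without the second-listed MPP library.

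Summed over their regions, the elements at 32.9 and 37.9 kb were lower in CDP as well. At 32.9 kb, the larger region (mm9 chr7:35936001-35938150) had 267 and 696 in CDP libraries, against 1098 and 1008 in MPP libraries. The CDP libraries differed widely but both lay below MPP, at a log2 ratio of -1.28 (SE 0.36, adjusted p = 0.0161). The adjusted p was 0.394 without the first-listed CDP library, 0.159 without the first-listed MPP library and 0.131 without the second-listed. At 37.9 kb, mm9 chr7:35941751-35943100 had 247 and 467 in CDP libraries, against 819 and 1060 in MPP libraries, without overlap. The fit gave a log2 ratio of -1.45 (SE 0.33, adjusted p = 0.00395), with adjusted p = 0.0772 without the first-listed CDP and 0.106 without the second-listed MPP library. The adjacent mm9 chr7:35940701-35941650 had 265 and 402 in CDP libraries, against 536 and 732 in MPP libraries, and was called at adjusted p = 0.0470. That call was lost without the first-listed CDP (0.328), the first-listed MPP (0.0952) or the second-listed MPP library (0.311), and also with equal autosomal totals, with equal library medians and without the trend in variance. The elements at 3.6 and 6.0 kb and a short region at 32.9 kb were not called. That short region, mm9 chr7:35935751-35936000, had 71 and 121 in CDP libraries, against 87 and 78 in MPP libraries, with overlap and the higher mean in CDP. Summed over the window's 11.3 kb of listed regions, Cebpa had 3845 and 4969 in CDP libraries, against 10376 and 9276 in MPP libraries, a mean 2.23-fold lower in CDP.

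In cDC, 1 Cebpa element fell steeply relative to CDP, and no other region of the window passed the test. Of 14 regions, 1 was called lower and 0 higher in cDC, against 14.4% lower and 7.64% higher among all regions of the list. The unadjusted p was under 0.05 for 2 higher, and limma called 2 higher with equal autosomal totals, the gene body and the element at 19 kb. With equal totals, 8456 of all 76865 regions of the list were called higher. The authors' deposited −log10 p reached 10 for 3 higher, against 16.6% of all regions. By a ratio of at least 2 with separate libraries, 2 of the 14 differed, against 32.9% of all regions. The called element was that at 8.4 kb, mm9 chr7:35911851-35913000. It had 49 and 85 in cDC libraries, against 797 and 408 in CDP libraries. Both cDC libraries were far below both CDP libraries, and the mean was 8.88-fold lower in cDC. The fitted log2 ratio was -3.12 (SE 0.51, adjusted p = 2.9e-05), and it was the 1 Cebpa region, in any list, called under every one of the 12 settings of the limma fit.

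Elsewhere in the Cebpa window the libraries overlapped, or were separate without passing the test. The 3 regions over the gene summed to 4145 and 4066 in cDC libraries, against 2524 and 3107 in CDP libraries. The sum was higher in both cDC libraries, by 1.46-fold between the means. Of these regions, mm9 chr7:35903751-35904100 overlaps the position of the start. It had 344 and 336 in cDC libraries, against 309 and 422 in CDP libraries, with overlap. Its limma log2 ratio was -0.087 (adjusted p = 0.90). The largest region, mm9 chr7:35904101-35906200, covers the body of this intronless gene and had 2887 and 2996 in cDC libraries, against 1788 and 2198 in CDP libraries. Its limma adjusted p was 0.26, while the authors' deposited −log10 p was 41.2. The element at 19 kb had 209 and 429 in cDC libraries, against 130 and 133 in CDP libraries, separate but with adjusted p = 0.0897. At 32.9 kb the values were 684 and 910 in cDC libraries, against 390 and 866 in CDP libraries, and the groups overlapped. At 37.9 kb the 4 regions summed to 626 and 603 in cDC libraries, against 595 and 896 in CDP libraries, also overlapping. The window sums were 5959 and 6511 in cDC libraries, against 4759 and 5952 in CDP libraries, a ratio of 1.16.

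In pDC, the mark on the Cebpa gene body was higher than in CDP while every listed element further downstream had a lower mean. Of 9 regions, 1 was called higher and 2 lower in pDC, where 25.2% of all regions of the list were called higher and 19.7% lower. By a ratio of at least 2 with separate libraries, 5 of the 9 differed, all of them lower, against 47.6% of all regions in either direction. The gene body, mm9 chr7:35904101-35906000, had 2672 and 3408 in pDC libraries, against 1518 and 1893 in CDP libraries. Both pDC libraries were higher, with a log2 ratio of 0.83 (SE 0.21, adjusted p = 0.0181), and 29.2% of all regions of the list had a higher ratio. That call was lost without any 1 library: the adjusted p was 0.165 without the second-listed pDC, 0.0748 without the first-listed pDC, 0.106 without the first-listed CDP and 0.0542 without the second-listed CDP library. The region just before it, mm9 chr7:35903351-35904100, overlaps the position of the start and had 399 and 623 in pDC libraries, against 552 and 669 in CDP libraries, with overlapping libraries.

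The element at 8.4 kb had 47 and 81 in pDC libraries, against 662 and 348 in CDP libraries. Both pDC libraries were far below CDP, at a log2 ratio of -2.94 (SE 0.47, adjusted p = 0.00299, and 0.0591 without the first-listed CDP library). The element at 37.9 kb had 233 and 258 in pDC libraries, against 494 and 753 in CDP libraries, without overlap. The log2 ratio was -1.31 (SE 0.31, adjusted p = 0.0135), with 0.0738 without the second-listed CDP, 0.102 without the first-listed pDC and 0.0792 without the second-listed pDC library. At 32.9 kb the values were 129 and 171 in pDC libraries, against 245 and 672 in CDP libraries, separate but with adjusted p = 0.0546. The window sums overlapped, with 3629 and 4762 in pDC libraries, against 3650 and 4657 in CDP libraries. Their ratio of 1.01 turned below 1 with equal autosomal totals or library medians.

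Between the mature cell types, the elements at 19, 32.9 and 37.9 kb were lower in pDC, while no region over the Cebpa gene was called. Of 9 regions, 0 were called higher and 3 lower in pDC, against 23.3% higher and 9.32% lower among all regions of the list. The unadjusted p also gave 0 higher, and the authors' deposited −log10 p of at least 10 gave 1, against 33.8% of all regions. The gene body, mm9 chr7:35904151-35905900, had 3041 and 3904 in pDC libraries, against 2749 and 2842 in cDC libraries. The limma log2 ratio was 0.30 with an SE of 0.28 and adjusted p = 0.46. The promoter side, mm9 chr7:35902851-35904000, had 506 and 864 in pDC libraries, against 1112 and 990 in cDC libraries, and was not called (adjusted p = 0.193), although it was with equal autosomal totals or library medians. Summed over the gene the values were 3580 and 4826 in pDC libraries, against 3904 and 3895 in cDC libraries, which overlap, and the ratio of 1.08 turned below 1 under those scalings.

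The element at 32.9 kb had 183 and 239 in pDC libraries, against 667 and 879 in cDC libraries. The groups were well apart, by 3.65-fold between the means. Its log2 ratio was -1.87 (SE 0.37, adjusted p = 0.00482, and 0.0538 without the first-listed pDC library). At 37.9 kb, mm9 chr7:35940901-35941750 had 122 and 173 in pDC libraries, against 418 and 387 in cDC libraries, again without overlap. The fit gave a log2 ratio of -1.46 (SE 0.41, adjusted p = 0.0236). Without the first-listed cDC, first-listed pDC or second-listed pDC library the adjusted p was 0.0732, 0.262 and 0.0859. A neighbouring short region, mm9 chr7:35941751-35941950, had 90 and 83 in pDC libraries, against 75 and 86 in cDC libraries, and was not called. At 19 kb, mm9 chr7:35923001-35923450 had 30 and 60 in pDC libraries, against 109 and 248 in cDC libraries. It only just passed, at a log2 ratio of -1.93 (SE 0.65, adjusted p = 0.0497). The call was lost without any 1 library, with adjusted p between 0.0543 and 0.322. The first-listed cDC gave 0.0543, the second-listed cDC 0.192, the first-listed pDC 0.322 and the second-listed pDC 0.0647.

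**Figure D1:**
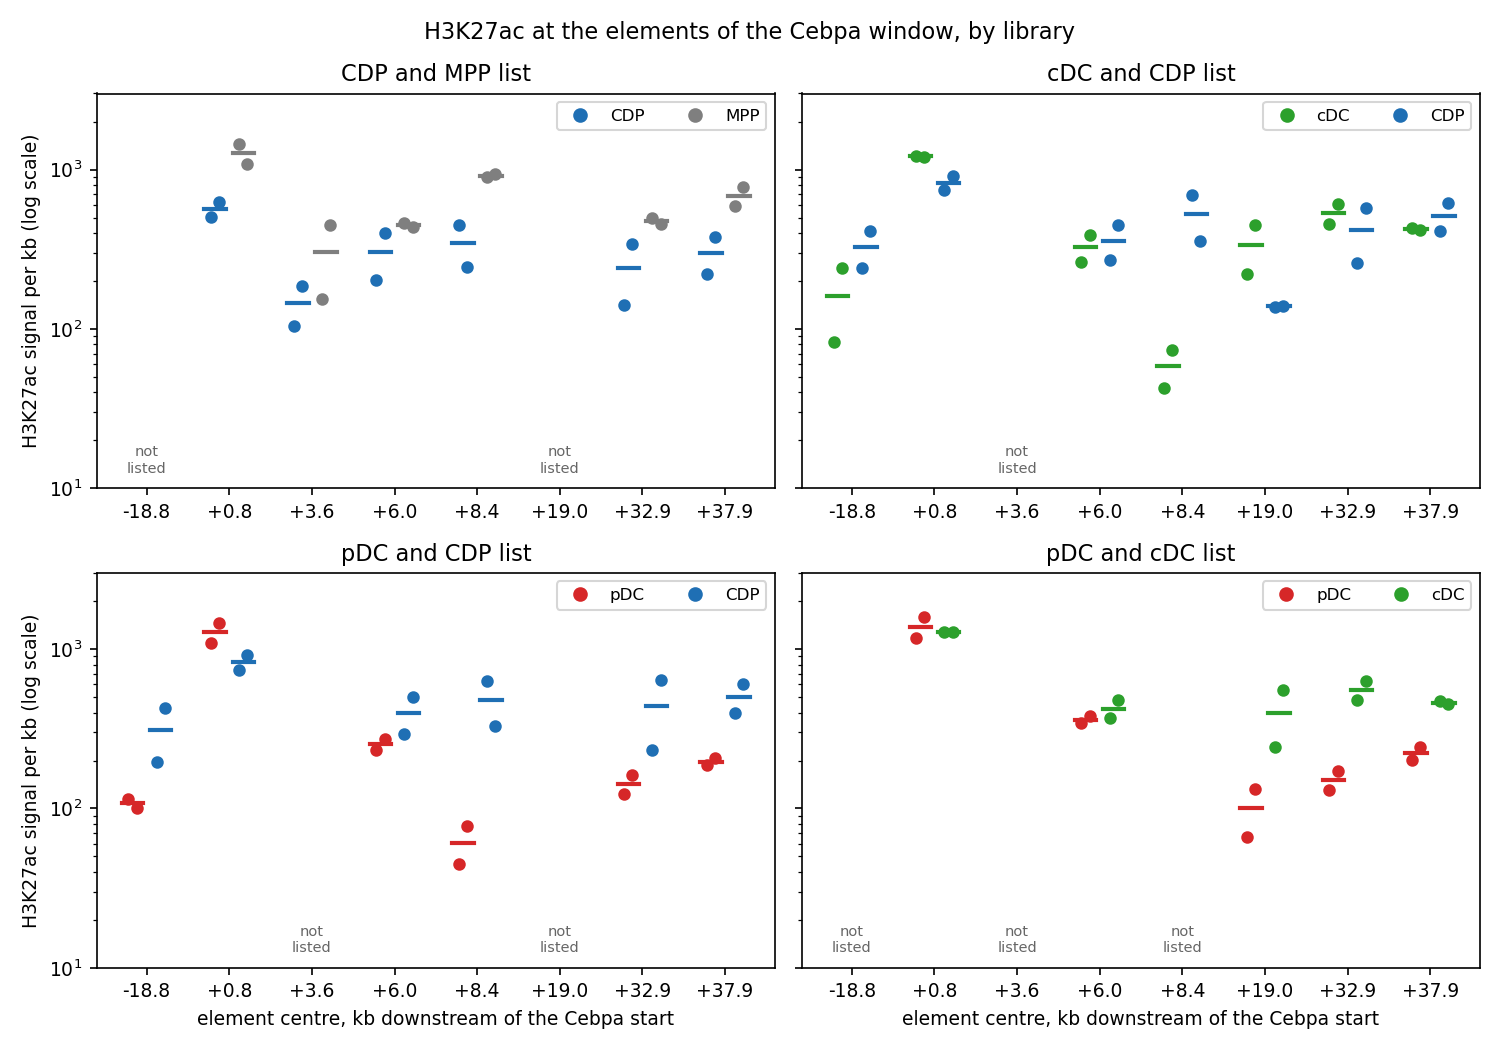
H3K27ac signal per kb (log scale, vertical axis) in each library at the elements of the Cebpa window, placed by kb downstream of the start (horizontal axis), in 1 panel per list; points are libraries. In the panel of cDC and CDP the element at 8.4 kb stands out with sums of 49 and 85 in cDC libraries, against 797 and 408 in CDP libraries, while those at 32.9 and 37.9 kb overlap.

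Set against the whole window, the Cebpa signal lay to a greater share on the gene in pDC than in CDP or cDC. A share of the window's listed signal does not change if a library is scaled by a single factor, but the scaling method is not known. The gene took 85.8% and 86.9% of it in pDC, against 57.7% and 56.4% in CDP. In the other list with pDC it took 87.1% and 87.8% in pDC, against 73.9% and 69.1% in cDC. For cDC the shares were 69.6% and 62.4%, against 53.0% and 52.2% in CDP. The groups did not overlap in these 3 lists. They did overlap in the list of progenitors, where CDP had 55.2% and 52.7%, against 58.6% and 48.7% for MPP. With 2 libraries on each side, a two-sided exact permutation test cannot go below 0.33, so no test of the shares is given.

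H3K27ac at Gfi1 was lower in CDP than in MPP at the start and at the elements at 26.8 and 37.7 kb, and higher at 17.6 kb. All 4 regions were called, 3 lower and 1 higher in CDP, beside the list's 19.4% in either direction and 8.42% higher. The start region, mm9 chr5:108151901-108156450, is the longest of the 60 and reaches from 1.4 kb before to 3.1 kb after the start. It had 1570 and 1755 in CDP libraries, against 7939 and 6138 in MPP libraries. The CDP libraries were close to each other and both far below MPP, by 4.23-fold between the means. The fitted log2 ratio was -2.07 (SE 0.30, adjusted p = 8.0e-05), and the authors' deposited −log10 p was 778.

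The element at 26.8 kb showed a still larger ratio. It had 167 and 323 in CDP libraries, against 1581 and 1479 in MPP libraries. Both CDP libraries were several-fold below either MPP library. The log2 ratio was -2.71 (SE 0.33, adjusted p = 1.2e-05). At 37.7 kb the values were 61 and 123 in CDP libraries, against 372 and 258 in MPP libraries. The limma log2 ratio was -1.83 (SE 0.42, adjusted p = 0.00407, and 0.11 without the first-listed MPP library).

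The element at 17.6 kb went the other way. It had 261 and 302 in CDP libraries, against 174 and 72 in MPP libraries. The groups did not overlap, though the MPP libraries differed from each other by more than the gap between the groups. Its log2 ratio was 1.32 (SE 0.42, adjusted p = 0.0326). The call was lost without the second-listed CDP library (0.0839), without the second-listed MPP library (0.346) and without the trend in variance. Summed over the window's 7.4 kb of listed regions, Gfi1 had 2059 and 2503 in CDP libraries, against 10066 and 7947 in MPP libraries, 3.95-fold lower in CDP.

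The Gfi1 start fell again in cDC. Of 4 regions, 1 was called lower and 0 higher in cDC, beside the list's 14.4% lower and 7.64% higher. The unadjusted p under 0.05 and the authors' deposited −log10 p of at least 10 each gave 0 higher, against 16.6% of all regions by the authors' p. The ratio rule gave 2 of the 4, both lower, against 32.9% of all regions in either direction. The start, mm9 chr5:108153601-108156100, had 193 and 421 in cDC libraries, against 1730 and 1968 in CDP libraries. Both cDC libraries were far below CDP, by 6.01-fold between the means. The fit gave a log2 ratio of -2.69 (SE 0.41, adjusted p = 1.0e-05), and the call held under all 12 settings. The element at 26.8 kb had 25 and 135 in cDC libraries, against 141 and 215 in CDP libraries, with adjusted p = 0.083. That element was called with a pseudocount of 5, without regions of mean signal under 50, or without the second-listed cDC library. At 17.6 kb the values were 343 and 452 in cDC libraries, against 347 and 386 in CDP libraries, with a log2 ratio of 0.11 and adjusted p = 0.88. At 37.7 kb they were 80 and 156 in cDC libraries, against 30 and 90 in CDP libraries, and overlapped. The window sums were 641 and 1164 in cDC libraries, against 2248 and 2659 in CDP libraries, 2.72-fold lower in cDC.

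In pDC, the start of Gfi1 fell relative to CDP and 3 elements towards and beyond its far end rose. Of 7 regions, 3 were called higher and 1 lower in pDC, beside the list's 25.2% higher and 19.7% lower. The ratio rule gave 5 of the 7, with 3 higher and 2 lower, against 47.6% of all regions in either direction. The start, mm9 chr5:108153601-108156050, had 479 and 698 in pDC libraries, against 1522 and 1743 in CDP libraries. The fitted log2 ratio was -1.49 (SE 0.25, adjusted p = 0.00378). Without the first-listed or the second-listed CDP library the adjusted p was 0.0513 and 0.0603.

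The far end of the gene, mm9 chr5:108146301-108147950, had 1516 and 1765 in pDC libraries, against 122 and 207 in CDP libraries. Both pDC libraries were several-fold above both CDP libraries. The log2 ratio was 3.36 (SE 0.32, adjusted p = 0.00042). The element at 37.7 kb had 1124 and 1169 in pDC libraries, against 74 and 145 in CDP libraries. The limma log2 ratio was 3.45 (SE 0.37, adjusted p = 0.000655). Both calls held under all 12 settings. The smaller element at 44.1 kb had 157 and 173 in pDC libraries, against 40 and 37 in CDP libraries. Its log2 ratio was 2.07 (SE 0.45, adjusted p = 0.0101), with adjusted p = 0.0707 if the first-listed pDC library was left out and 0.077 if the second-listed was. Between these, the elements at 17.6 and 26.8 kb were not called. At 17.6 kb the sums were 237 and 161 in pDC libraries, against 190 and 209 in CDP libraries, with overlap. At 26.8 kb they were 45 and 84 in pDC libraries, against 101 and 163 in CDP libraries, separate and 2.03-fold lower in pDC (adjusted p = 0.148, but called with equal autosomal totals or library medians). Over the whole Gfi1 window the sums were 3558 and 4050 in pDC libraries, against 2049 and 2504 in CDP libraries, a ratio of 1.67.

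Against cDC, the same stretch of Gfi1 was higher in pDC in 4 of 5 regions, with 0 called lower, beside 23.3% higher and 9.32% lower in the list. The unadjusted p under 0.05 and the authors' deposited −log10 p of at least 10 gave 0 lower as well, against 18.9% by the authors' p for all regions. The far end of the gene, mm9 chr5:108146301-108148000, had 1813 and 2063 in pDC libraries, against 42 and 44 in cDC libraries. Both pDC libraries were far above both cDC libraries, by 44.1-fold between the means. The fit gave a log2 ratio of 5.46 (SE 0.37, adjusted p = 0.000199), and 1.75% of all regions of the list had a higher ratio. The other called regions were less extreme. A higher ratio was held by 8.54% of regions for the element at 44.1 kb, 14.5% for that at 37.7 kb and 23.4% for the start. The element at 37.7 kb had 1309 and 1335 in pDC libraries, against 149 and 374 in cDC libraries, at a log2 ratio of 2.48 (SE 0.45, adjusted p = 0.00322). The element at 44.1 kb had 216 and 234 in pDC libraries, against 14 and 27 in cDC libraries, at a log2 ratio of 3.46 (SE 0.62, adjusted p = 0.00306). These 3 calls held under all 12 settings.

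The Gfi1 start had 467 and 574 in pDC libraries, against 126 and 275 in cDC libraries. The groups did not overlap, and the log2 ratio was 1.47 (SE 0.46, adjusted p = 0.0366). The call was lost without the first-listed cDC (0.0901), the first-listed pDC (0.128) or the second-listed pDC library (0.242). The element at 17.6 kb had 167 and 115 in pDC libraries, against 151 and 171 in cDC libraries, overlapping and not called. The window sums were 3972 and 4321 in pDC libraries, against 482 and 891 in cDC libraries, 6.03-fold higher in pDC.

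**Figure D2:**
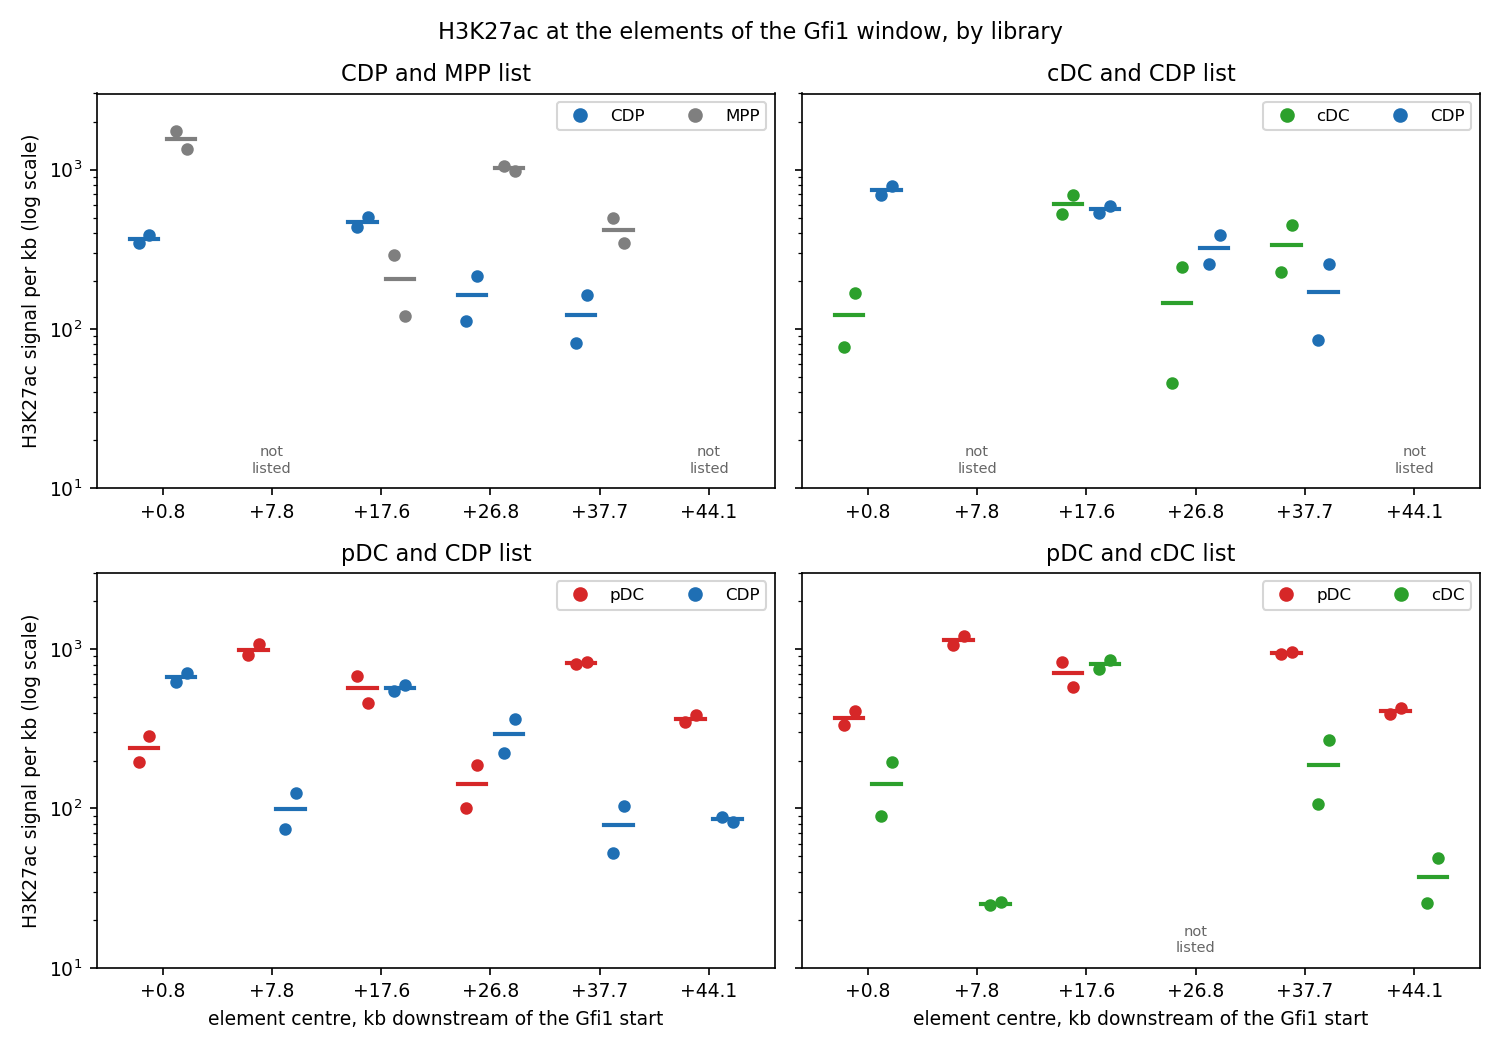
H3K27ac signal per kb (log scale, vertical axis) in each library at the elements of the Gfi1 window, placed by kb downstream of the start (horizontal axis), in 1 panel per list; points are libraries. In the panel of pDC and cDC the element at 7.8 kb separates most, with sums of 1813 and 2063 in pDC libraries, against 42 and 44 in cDC libraries, and the element at 17.6 kb overlaps.

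The shares of the Gfi1 window's listed signal are given for the elements that held most of it. The start held 76.3% and 70.1% in CDP, against 78.9% and 77.2% in MPP. It held 30.1% and 36.2% in cDC, against 77.0% and 74.0% in CDP. In pDC it held 13.5% and 17.2%, against 74.3% and 69.6% in CDP. The far end held 42.6% and 43.6% in pDC, against 5.95% and 8.27% in CDP, and the element at 37.7 kb held 31.6% and 28.9% in pDC, against 3.61% and 5.79% in CDP. At 17.6 kb the share was 53.5% and 38.8% in cDC, against 15.4% and 14.5% in CDP, while the signal itself overlapped, as given above. In the list of pDC and cDC, the start held 11.8% and 13.3% in pDC, against 26.1% and 30.9% in cDC. The far end held 45.6% and 47.7% in pDC, against 8.71% and 4.94% in cDC. The share at 37.7 kb overlapped there, with 33.0% and 30.9% in pDC, against 30.9% and 42.0% in cDC.

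**Figure D3:**
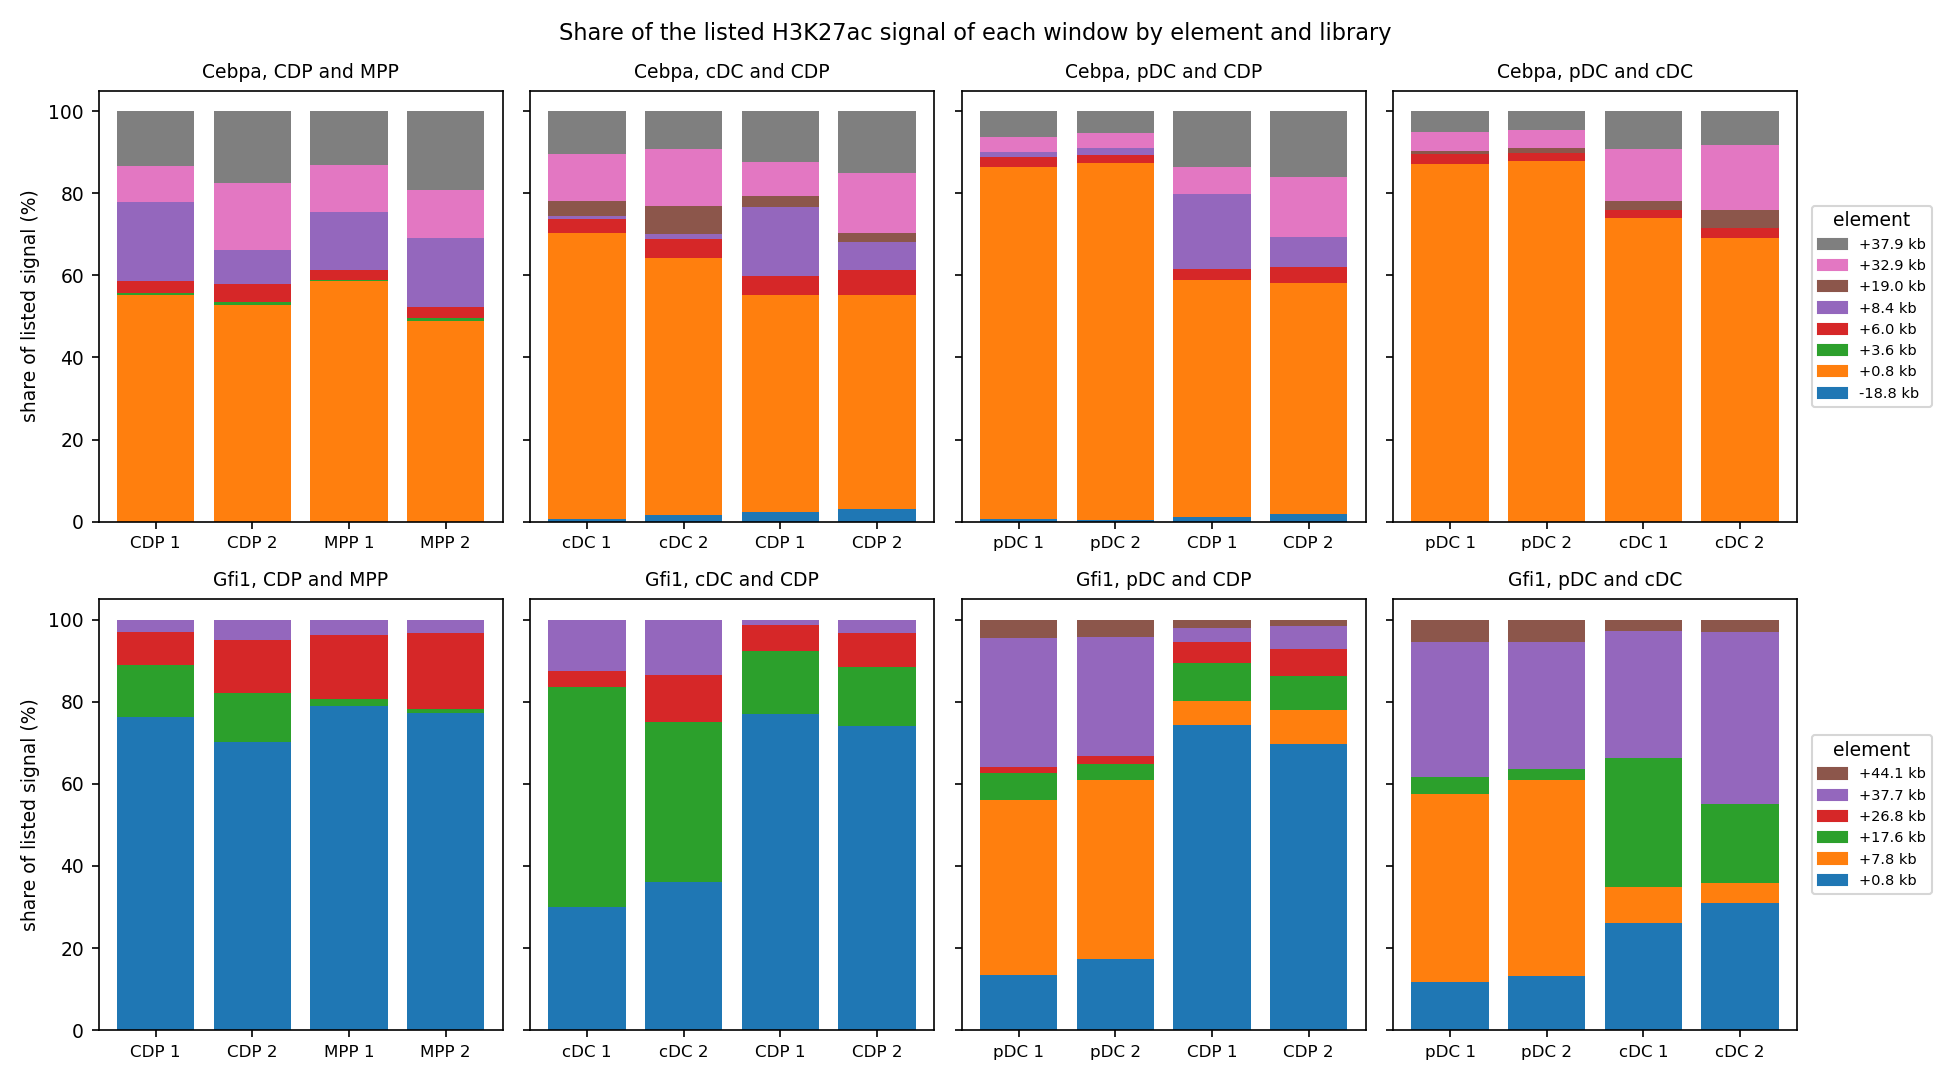
Share of the listed H3K27ac signal of each window (vertical axis, %) by element (colours) in each library (horizontal axis), with Cebpa above and Gfi1 below and 1 column per list. The gene takes 85.8% and 86.9% of the Cebpa signal in pDC, against 57.7% and 56.4% in CDP, while the Gfi1 start takes 13.5% and 17.2% in pDC, against 74.3% and 69.6% in CDP.

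Across the lists, the Cebpa element at 8.4 kb was low in both mature cell types, at 49 and 85 in cDC libraries, against 797 and 408 in CDP libraries, and at 47 and 81 in pDC libraries, against 662 and 348 in CDP libraries. The pDC and cDC list has no region there, which does not show equal signal. The Cebpa elements at 32.9 and 37.9 kb summed 2.73-fold lower in pDC than in CDP and 2.82-fold lower in pDC than in cDC. For cDC over CDP the ratio was 1.03, on the log2 scale 0.039. That value turned to -0.32 without the first-listed CDP and -0.068 without the second-listed cDC library, and was 0.52 without the second-listed CDP library. These lists share libraries, so they are not separate evidence.

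**Figure D4:**
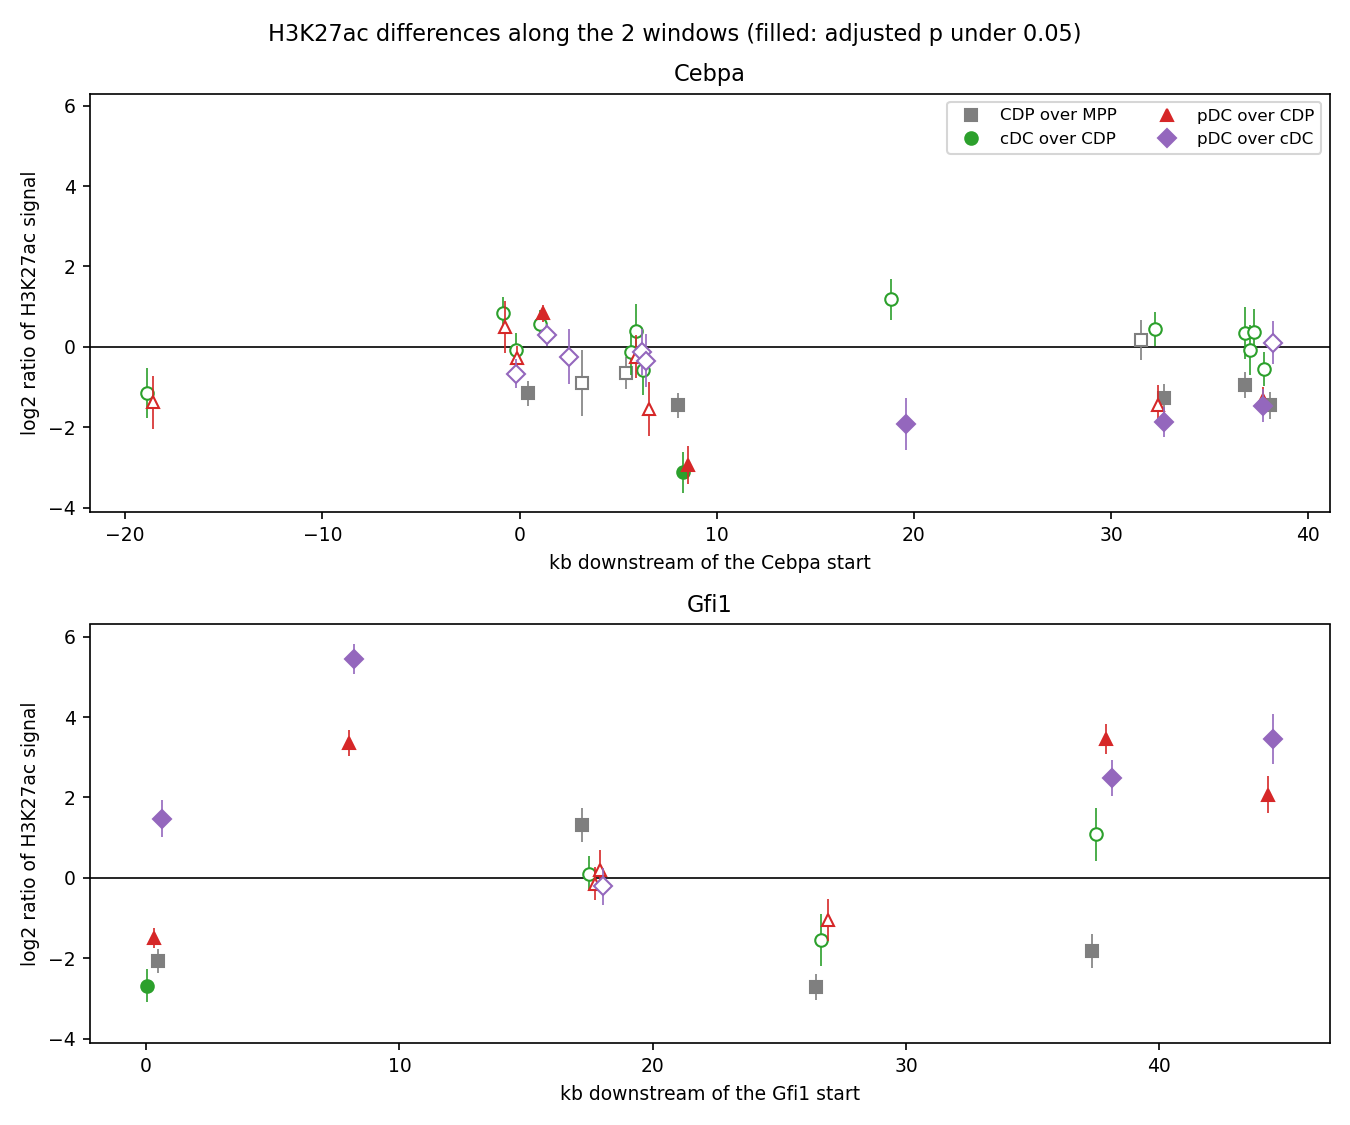
log2 ratio of H3K27ac signal from limma (vertical axis) of every region by its position in kb downstream of the start (horizontal axis), for Cebpa and Gfi1; symbols mark the 4 lists, and filled symbols have adjusted p under 0.05. Of the 60 regions 25 are filled, from -3.12 at the Cebpa element at 8.4 kb for cDC over CDP to 5.46 at the far end of Gfi1 for pDC over cDC.

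Regions just outside the windows are given as values with no test. The nearest region upstream of Gfi1, centred 23.9 kb before the start (mm9 chr5:108177751-108179950), had 988 and 859 in CDP libraries, against 3719 and 3007 in MPP libraries. Its counterpart mm9 chr5:108178151-108179450 had 47 and 74 in cDC libraries, against 1124 and 963 in CDP libraries, and mm9 chr5:108178151-108179400 had 34 and 103 in pDC libraries, against 979 and 847 in CDP libraries. All 3 differed in the same direction as the Gfi1 start in the same list. Upstream of the Cebpa window, mm9 chr7:35883201-35884850 ends 0.15 kb from its edge. There, CDP libraries had 1312 and 1611, against 457 and 382 in MPP libraries, the opposite direction to the Cebpa gene. The same region had 329 and 650 in pDC libraries, against 1406 and 1785 in CDP libraries. In the list of pDC and cDC, mm9 chr7:35883951-35884950, which ends 0.05 kb from the edge, had 307 and 498 in pDC libraries, against 753 and 964 in cDC libraries. In the list of cDC and CDP, mm9 chr7:35884851-35885000 reaches the edge and had 32 and 63 in cDC libraries, against 43 and 30 in CDP libraries, with overlap. That region is much shorter than those of the other lists, so it does not show equal signal over the stretch they cover. The small element centred 18.8 kb upstream, just inside the window, was not called in either of the lists that hold it. On the far side of Gfi1, mm9 chr5:108077501-108079250, centred 76.6 kb downstream, had 1082 and 1337 in pDC libraries, against 90 and 169 in CDP libraries.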

How the data were processed

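H3K27ac ChIP-seq reads were aligned with BWA 0.6.1 to mm9, per the submitters' processing notes. THOR, a differential peak caller, is named in the series title. The authors' deposited lists give, for each region, a whole-number signal of each of 4 libraries and −log10 of a p-value. The sources used here give neither the scaling method nor a p threshold, and depth is unknown. The signals are scaled per library and per list. The first-named cell type of a list was taken to hold the first values. This was checked on regions shared between lists: the log2 SD was at most 0.056 in 10 same-place pairs, and at least 0.42 in the other 86. MPP is found in a single list, so its values could not be matched between lists. They are those left in that list once the CDP values were matched. The input and RNA libraries were not used here.

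Regions overlapping the windows around both genes were taken from all 4 lists. limma 3.58.1 (R 4.3.3) was fitted with a trend in variance to log2(signal + 1) over all regions of each list, with Benjamini-Hochberg adjustment over the list and a threshold of 0.05. log2 ratios of low signals are understated by the pseudocount. The script was tested on simulated data. Of regions given a log2 ratio of 2 in either direction, it called 85% for CDP over MPP and 63% for cDC over CDP. For pDC over CDP it called 67%, and for pDC over cDC 59%. A region that was not called is therefore not shown to have equal signal. Folds are ratios of group means, with 1 added to each mean. Sums have no test of their own, since 2 libraries a side allow no exact two-sided permutation p below 0.33.

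Regions printed with a call were those overlapping the Cebpa position or either end of Gfi1, and up to 5 further called regions per list and gene with the largest log2 ratio. Others are given as values, and for some of them a log2 ratio, an adjusted p or the authors' p is printed too, outside that rule. The genes, windows, lists and tests were chosen with earlier results of these data known, and elements joined at 250 bp after seeing them. The 12 settings of the fit were the one used, pseudocounts of 0.5 and 5, no trend, equal autosomal totals, equal library medians, a mean signal of at least 50, a length of at least 500 bp, and a fit without each of the 4 libraries. Other myeloid genes and cell type markers were not placed, since an mm9 annotation was not used here. Figures were drawn with matplotlib 3.10.9, and tables made with pandas 2.3.3 in Python 3.11.15. Coordinates are 1-based.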

Additional observations from a re-analysis of the deposited data

How the results depend on the processing

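No paired analysis was possible because the listed values carry no replicate number. The 2 libraries of a cell type, the unknown depth and the authors' selection of regions on the same libraries limit every test. Of the 25 named regions called, 9 were called under all 12 settings of the fit, 1 of 12 at Cebpa and 8 of 13 at Gfi1. The share of all called regions that kept their call under all 12 settings was not computed. The counts at Cebpa and Gfi1 therefore have no share of the lists to be set against. The cause of lost calls was not tested. Among named regions not called, the fitted log2 ratio could turn direction. At the Cebpa start region of the pDC and CDP list it was -0.28, but 0.036 without the first-listed pDC library. At that of the cDC and CDP list it was -0.087, but 0.011 with equal autosomal totals and 0.10 with equal library medians. Without the second-listed CDP library it was 0.14. The sections on each gene name libraries without which calls were lost, and no loss is assigned to a library.

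Counts of calls moved as follows. Without the trend, CDP over MPP had 0 Cebpa regions lower (5 with it) and 0 Gfi1 higher (1), and pDC over CDP had 0 Cebpa higher (1). Over all 60816 regions of CDP over MPP, lower calls went from 6675 to 4568 and higher calls from 5118 to 2994. Over all 69958 regions of pDC over CDP, higher calls went from 17599 to 14568. Equal autosomal totals gave 2 Cebpa higher for cDC over CDP (0), and for pDC over CDP 4 Cebpa lower (2) and 2 Gfi1 lower (1). The whole lists moved the same way. Higher calls for cDC over CDP went from 5872 to 8456 of 76865 regions, and lower calls for pDC over CDP from 13804 to 21882 of 69958. Equal library medians gave 3 Cebpa higher for cDC over CDP and 2 Gfi1 lower for pDC over CDP. With them, 10415 of 76865 regions were called higher for cDC over CDP and 19476 of 69958 lower for pDC over CDP. A deposited −log10 p of at least 10 gave 3 Cebpa higher for cDC over CDP and 1 for pDC over cDC, against 16.6% and 33.8% of all regions. A ratio of at least 2 with separate libraries gave, for cDC over CDP, 1 Cebpa higher and 2 Gfi1 lower, and for pDC over CDP 0 Cebpa higher, 5 Cebpa lower and 2 Gfi1 lower. In either direction that rule took 32.9% of all regions for cDC over CDP and 47.6% for pDC over CDP. A pseudocount of 5 or a mean signal of at least 50 gave 2 Gfi1 lower for cDC over CDP. Over that whole list, 12723 of 76865 regions were called lower with the first and 9959 of 68975 with the second.

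Log2 ratios of sums also moved, and some turned direction. Here the Gfi1 gene is its start and far end together, and its downstream side the elements beyond. With equal autosomal totals, pDC over CDP gave -0.29 for the Cebpa window (0.015 as reported), 0.44 for the Gfi1 window (0.74), 0.31 for the Cebpa gene (0.62), 1.43 downstream of Gfi1 (1.71) and 0.0081 for the Gfi1 gene (0.31). With them, pDC over cDC gave -0.69 for the Cebpa window (-0.19), -1.98 at 30 to 45 kb from Cebpa (-1.49) and -0.40 for the Cebpa gene (0.11), and cDC over CDP 0.046 downstream of Gfi1 (-0.022). With equal library medians, cDC over CDP gave 0.43 for the Cebpa window (0.22), 0.77 for the Cebpa gene (0.54) and 0.13 downstream of Gfi1. For pDC over CDP they gave -0.20 for the Cebpa window, 0.54 for the Gfi1 window and 0.10 for the Gfi1 gene, and for pDC over cDC -0.65 for the Cebpa window, -1.94 at 30 to 45 kb and -0.37 for the Cebpa gene. With regions of at least 500 bp, pDC over CDP gave -2.96 at the other Cebpa elements downstream (-2.07) and 3.38 downstream of Gfi1, and pDC over cDC -1.71 at 30 to 45 kb and 2.45 downstream of Gfi1 (1.93).

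Leaving out each library in turn gave the ranges below. The number of calls over the whole of each list moved in these fits as well, and no share of all regions is set beside the counts. A call gained or lost is therefore not read as a trait of either gene. Counts of calls were 1 to 3 Cebpa lower and 0 to 1 Gfi1 higher for CDP over MPP, 0 to 1 Cebpa higher and 1 to 2 Gfi1 lower for cDC over CDP, 0 Cebpa higher in every fit, 1 to 2 Cebpa lower and 0 to 1 Gfi1 lower for pDC over CDP and 0 to 2 Cebpa lower for pDC over cDC. Log2 ratios of sums for cDC over CDP were -1.93 to -1.08 for the Gfi1 window, -0.32 to 0.52 for Cebpa at 30 to 45 kb, 0.40 to 0.70 for the Cebpa gene, -1.13 to -0.31 for the other Cebpa elements downstream, -1.95 to -0.43 for the Cebpa element upstream, -0.43 to 0.30 for the downstream side of Gfi1 and -3.25 to -2.13 for the Gfi1 gene. Log2 ratios of sums for pDC over CDP were -0.19 to 0.20 for the Cebpa window, -1.85 to -0.90 for Cebpa at 30 to 45 kb, -1.93 to -0.83 for the Cebpa element upstream and 1.51 to 1.96 for the downstream side of Gfi1. Log2 ratios of sums for pDC over cDC were -0.41 to 0.0090 for the Cebpa window, 2.22 to 3.10 for the Gfi1 window, -0.12 to 0.31 for the Cebpa gene, -1.34 to -0.52 for the other Cebpa elements downstream, 1.56 to 2.42 for the downstream side of Gfi1 and 2.94 to 3.86 for the Gfi1 gene. Log2 ratios of sums for CDP over MPP were -1.67 to -0.68 for Cebpa at 30 to 45 kb, -1.49 to -1.04 for the other Cebpa elements downstream and -2.01 to -1.39 for the downstream side of Gfi1.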
